A study of Homo sapiens with 6 samples.

Results

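The genes described here encode the main heat shock chaperones of human cells and the factor that governs them. They are HSF1, HSPA1A, HSPA1B, HSPA8, HSPH1, DNAJB1, HSP90AA1, HSP90AB1, HSPD1 and HSPE1. They were chosen by name, with earlier results of these data known. All 10 have a row among the 20333 gene intervals of the deposited table. None had fewer than 10 counts in every library, and all 10 passed the filter on low counts that left 19902 genes for testing. The group is called cytosolic, but HSPD1 and HSPE1 encode the chaperonin of the mitochondrial matrix. Their values are described apart from the others, but the counts and medians over the 10 genes include both.

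Chaperones bind unfolded proteins and help them fold. HSP70 proteins take up extended stretches of polypeptide in cycles driven by ATP; J-domain proteins such as DNAJB1 start the cycle, and HSP110 proteins such as HSPH1 release the nucleotide that ends it. HSP90 proteins act later, on kinases and steroid receptors that are nearly folded. HSF1 is the transcription factor that switches these genes on after heat or other protein damage, by binding heat shock elements, which are inverted repeats of a short GAA unit. The HSP70 genes were among the first in which RNA polymerase was found to pause just after the start site.

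The assay was PRO-seq (precision nuclear run-on sequencing): RNA polymerases that sit on a gene at harvest are allowed to add labelled bases, and the RNA so marked is sequenced, which gives transcription in progress rather than stored RNA. T47D, the cell line used, is an established line of luminal breast cancer, positive for the estrogen receptor and negative for HER2, kept in medium with serum and growth factors. All were treated for 5 h, with the solvent DMSO, with 500 nM GDC0068, which blocks the catalytic activity of the AKT kinases, or with 100 nM INY-05-040, a compound that leads to loss of the AKT proteins and is named Degrader in the labels. The doses differ because they were set to give a like suppression of signalling below AKT. The experiment was done 2 times independently, which gives 2 libraries per arm, all of 1 cell line.

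The libraries held 25371819 to 32192576 counts. Values are given as CPM, the count scaled to the size and composition of its library, and each SD comes from the 2 libraries of 1 arm. In this bulk assay, fewer cells that transcribe a gene and less transcription per cell cannot be told apart. Counting error alone was 1.13% to 1.53% for HSPA8 and 7.50% to 9.67% for HSPE1, the gene with the fewest counts. The 7 luminal markers examined (ESR1, PGR, GATA3, FOXA1, KRT8, KRT18 and KRT19) summed to 5105 to 5480 CPM in the 6 libraries, and markers of basal, fibroblast, leukocyte and endothelial cells were not among the intervals analysed here. A change is relative to the bulk of genes, since no count from a spike-in was used. Coordinates are those of the deposited table. It names no build, but the submitters' processing notes name hg38 and GRCh38, and 99.8% of the names shared with a gene table of GRCh38.p14 overlapped the gene of that name.

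HSPA8 and HSPH1 fell under both drugs, HSPA1A rose under both, and HSP90AB1 and HSPD1 fell under Degrader. HSPA1B rose under GDC0068, a call close to the threshold. The calls of HSPA1A under both drugs, of HSPD1 under Degrader and of HSPH1 under GDC0068 were lost without certain single libraries. Against DMSO, edgeR called 5 of the 10 genes under Degrader, 1 higher and 4 lower, at a Benjamini-Hochberg adjusted p under 0.05. Of all genes tested, 15.3% were called in that comparison, 7.39% higher and 7.88% lower. Under GDC0068 it called 4 of the 10, 2 higher and 2 lower, where 3.58% of all genes were called, 1.7% higher and 1.88% lower. The median change of the 10 genes on the log2 scale was -0.18 under Degrader and -0.10 under GDC0068, beside medians of -0.00 and 0.01 over all genes tested. Under Degrader both libraries lay above both of DMSO for 1 gene and below them for 6, where 58.6% of all genes did not overlap (29.3% above and 29.2% below). Under GDC0068 they lay above for 3 genes and below for 5, where 50.1% of all genes did not overlap (26.1% above and 24% below). Both comparisons use the same DMSO libraries. Without Degrader replicate 2 or without DMSO replicate 1, 3 of the genes were called under Degrader, where 4.67% and 4.68% of all genes were. Under GDC0068 the count was 3 without either Degrader library, 2 without DMSO replicate 2 or GDC0068 replicate 2, and 1 without DMSO replicate 1 or GDC0068 replicate 1, in fits that called 0.185% to 2.74% of all genes. In a fit with the replicate number as a block, 6 were called under Degrader and 7 under GDC0068, but that fit also called 30.7% and 17.8% of all genes.

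**Figure D1:**
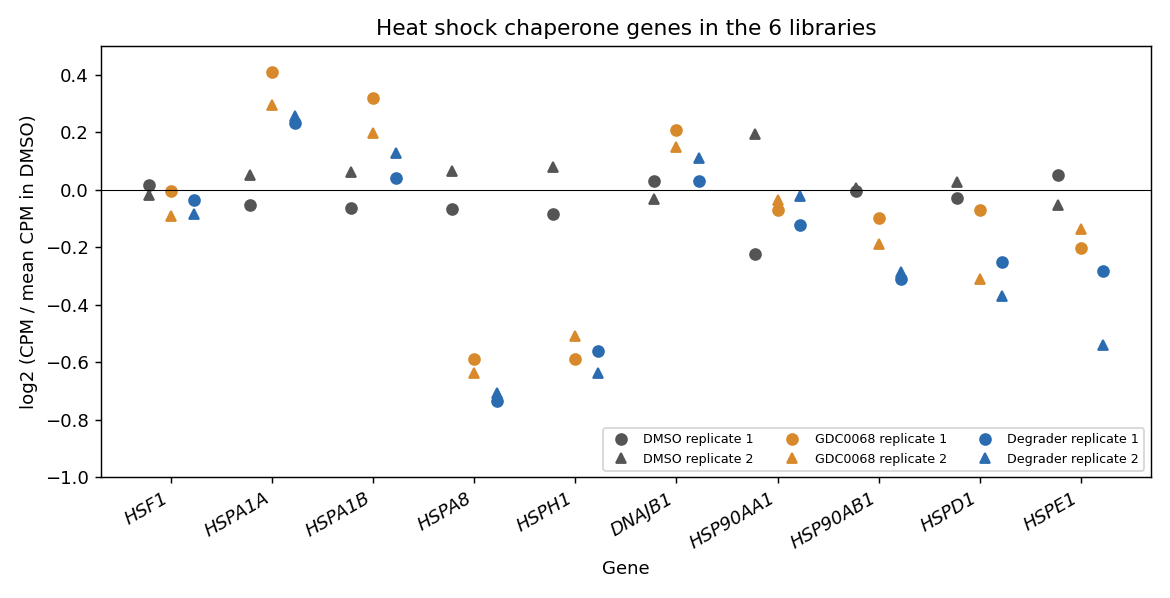
Each point is 1 library, plotted for each gene (x axis) as the log2 ratio of its CPM to the mean of the DMSO libraries (y axis); circles are replicate 1 and triangles replicate 2 of DMSO (grey), GDC0068 (orange) and Degrader (blue). The 4 drug libraries lie below both DMSO libraries for HSPA8 and HSPH1 and above both for HSPA1A, while the DMSO libraries of HSP90AA1 lie farther apart than its drug libraries.

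HSF1 (ENSG00000185122, chromosome 8, 144291610 to 144314720, plus strand) encodes the heat shock factor itself. Its level was 147 and 144 CPM in the DMSO libraries, 145 and 136 CPM under GDC0068, and 142 and 137 CPM under Degrader. The Degrader libraries lay just below both DMSO libraries, and the GDC0068 libraries overlapped them. The log2 fold change was -0.06 under Degrader (95% interval -0.17 to 0.05, edgeR adjusted p = 0.456) and -0.05 under GDC0068 (-0.16 to 0.06, edgeR adjusted p = 0.642). These intervals exclude a fall as deep as that of HSPA8, described next. The last 137 bases of the interval overlap DGAT1 and the last 131 overlap AC233992.1, both on the opposite strand. Neither was called under Degrader (DGAT1 -0.06, edgeR adjusted p = 0.485; AC233992.1 -0.24, edgeR adjusted p = 0.218) or under GDC0068 (-0.01, edgeR adjusted p = 0.935, and 0.09, edgeR adjusted p = 0.750).

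HSPA8 (ENSG00000109971, chromosome 11, 123057489 to 123062136, minus strand) encodes HSC70, the constitutive HSP70 of the cytosol, which also works in clathrin uncoating and chaperone-mediated autophagy. It gave 242 and 265 CPM in DMSO, 168 and 163 CPM under GDC0068, and 152 and 155 CPM under Degrader. Every drug library lay well below both DMSO libraries. The gene fell by 0.72 on the log2 scale under Degrader (SE 0.0557, edgeR adjusted p = 5.73e-05), to 0.607 of the DMSO level. Under GDC0068 it fell by 0.61 (SE 0.0556, edgeR adjusted p = 0.000658), to 0.654 of the DMSO level. Ordered by p over the 19902 genes, HSPA8 stood at place 10 under Degrader and at place 4 under GDC0068. Among the 13897 genes whose mean reached 10 CPM, its log2 fold change was the 29th lowest under Degrader and the 10th lowest under GDC0068. Between libraries of the same replicate number, the log2 ratio to DMSO was -0.66 and -0.77 under Degrader and -0.52 and -0.70 under GDC0068. HSPA8 was called in both comparisons under every alternative run, and with any 1 library left out the change lay between -0.79 and -0.65 under Degrader and between -0.68 and -0.54 under GDC0068.

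HSPA8 is also the host of small nucleolar RNAs. The intervals of SNORD14D and SNORD14E lie inside it on the same strand, and together their counts came to 19.6% of those of HSPA8. Per kb they had 50.6 and 52.3 CPM in DMSO, beside 54.5 for HSPA8. Their changes therefore cannot be told apart from that of the host gene. SNORD14D changed by -0.63 under Degrader (edgeR adjusted p = 0.00989) and by -0.63 under GDC0068 (edgeR adjusted p = 0.0324). SNORD14E changed by -0.58 (edgeR adjusted p = 0.00312) and by -0.44 (edgeR adjusted p = 0.0345). With the counts of both taken off, the fall of HSPA8 was called under Degrader (-0.75, edgeR adjusted p = 4.18e-05) and GDC0068 (-0.63, edgeR adjusted p = 0.000518). This setting was chosen after the data were seen. Both intervals had nearly the level per kb of HSPA8 and fell with it, so taking them off could not have removed the fall. The calls of both intervals under GDC0068 were lost without DMSO replicate 1, DMSO replicate 2 or GDC0068 replicate 2. The call of SNORD14D under Degrader was lost without Degrader replicate 1 or DMSO replicate 2.

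HSPA1A (ENSG00000204389, chromosome 6, 31815543 to 31817942, plus strand) encodes the inducible HSP70, which is raised steeply by heat. It stood at 40.3 and 43.3 CPM in DMSO, 55.5 and 51.3 CPM under GDC0068, and 49.2 and 50.0 CPM under Degrader. All 4 drug libraries were above both DMSO libraries. The log2 fold change was 0.35 under GDC0068 (SE 0.0639, edgeR adjusted p = 0.0157) and 0.25 under Degrader (SE 0.0640, edgeR adjusted p = 0.0245), a rise of 27.7% and of 18.6%. The call under Degrader was lost without Degrader replicate 1 (edgeR adjusted p = 0.0746), Degrader replicate 2 (edgeR adjusted p = 0.146) or DMSO replicate 1 (edgeR adjusted p = 0.197), and that under GDC0068 without DMSO replicate 1 (edgeR adjusted p = 0.152) or GDC0068 replicate 1 (edgeR adjusted p = 0.0781).

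HSPA1B (ENSG00000204388, chromosome 6, 31827737 to 31830254, plus strand) is the near-identical neighbour of HSPA1A and encodes the same kind of protein. Its level was 59.9 and 65.4 CPM in DMSO, 78.1 and 71.9 CPM under GDC0068, and 64.3 and 68.4 CPM under Degrader. The GDC0068 libraries were above those of DMSO, and the Degrader libraries overlapped them. The log2 fold change was 0.26 under GDC0068 (SE 0.0642, edgeR adjusted p = 0.0487) and 0.08 under Degrader (95% interval -0.06 to 0.23, edgeR adjusted p = 0.419). The GDC0068 call lay at the edge of the threshold. It was lost under DESeq2 (adjusted p = 0.0653), under limma voom (adjusted p = 0.0532), under RLE or total-count scaling, with no filter on low counts, in the fit to 4 libraries, and when any 1 of the 6 libraries was left out (edgeR adjusted p from 0.0623 without Degrader replicate 1 to 0.313 without DMSO replicate 1). The values in between were 0.0638 without Degrader replicate 2, 0.0860 without DMSO replicate 2, 0.0910 without GDC0068 replicate 2 and 0.208 without GDC0068 replicate 1.

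Reads from HSPA1A and HSPA1B can be hard to assign to one copy, and how the authors did so is not given in the sources used here. When their counts were summed, the log2 fold change was 0.30 under GDC0068 (edgeR adjusted p = 0.0222) and 0.15 under Degrader (edgeR adjusted p = 0.105), so the call under Degrader was lost. The last 660 bases of HSPA1B also overlap the long interval AL671762.1 on the same strand. That interval changed by -0.23 under Degrader (edgeR adjusted p = 0.0132) and by -0.19 under GDC0068 (edgeR adjusted p = 0.0667; 0.000921 with the replicate block), against the direction of HSPA1B. Its call under Degrader was lost without DMSO replicate 2, Degrader replicate 1 or Degrader replicate 2.

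The stretches just upstream of the HSP70 genes are shown because the constitutive gene fell and the inducible pair did not. They are RefSeq sequences of GRCh38.p14, and the start site of the deposited table equals the RefSeq start for HSPA8 and HSPA1A and lies 1 base away for HSPA1B. Capitals mark matches to the heat shock element, searched on both strands as 2 units (GAANNTTC or TTCNNGAA) or as 3 units (either of these with NN and the first unit added again, so that the shorter forms lie inside the longer), and matches to TATAAA. The HSPA8 sequence is chr11:123062137-123062386 on the minus strand, the 250 bases before the start. The HSPA1A sequence is chr6:31815413-31815542 and the HSPA1B sequence chr6:31827609-31827737, both on the plus strand and both ending at the base before the RefSeq start.
HSPA8: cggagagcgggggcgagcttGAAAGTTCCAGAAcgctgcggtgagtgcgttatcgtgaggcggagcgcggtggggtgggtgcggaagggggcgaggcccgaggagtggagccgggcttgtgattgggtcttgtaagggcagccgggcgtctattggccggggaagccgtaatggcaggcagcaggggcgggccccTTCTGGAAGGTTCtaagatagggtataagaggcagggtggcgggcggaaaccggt
HSPA1A: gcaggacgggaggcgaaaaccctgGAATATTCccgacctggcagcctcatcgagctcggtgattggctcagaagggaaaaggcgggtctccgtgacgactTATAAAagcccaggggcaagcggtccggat
HSPA1B: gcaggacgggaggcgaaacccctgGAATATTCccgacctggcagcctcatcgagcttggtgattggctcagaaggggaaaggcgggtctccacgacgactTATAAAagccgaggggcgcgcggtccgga

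HSPA8 holds 2 matches to the 3-unit element, at -230 to -218 and at -55 to -43 from the start site. The 3-unit form is found in 172 of the 35116 windows of 300 bases in the promoter table, which is 0.49%. Of 73 matched genes of the lists described below, 4 hold it (CHORDC1, DNAJA1, DNAJB6 and HSPA6). HSPH1, which also fell, has no window at its counted start. Only exact matches count, so elements with imperfect units would be missed or counted as 2 units. HSPA1A and HSPA1B hold 1 match each to the 2-unit form, at -106 to -99 in HSPA1A and -105 to -98 in HSPA1B, and a TATAAA each, at -30 to -25 and -29 to -24. The 2-unit form is present in 13.5% of all windows and TATAAA in 11.5%. HSPA8 has no exact TATAAA, but the letters tataag stand between its match at -55 to -43 and the start site. That form was not searched, so no difference in TATA elements between the genes can be read from these matches. The upstream sequences of HSPA1A and HSPA1B were identical at 235 of 249 bases compared (94.4%). Of the 10 genes, 9 were matched in the promoter table, all but HSF1. For HSPH1, DNAJB1, HSP90AA1, HSP90AB1 and HSPD1 the RefSeq start lies 434 to 52705 bases from the start counted here, so their windows do not describe the counted start, and the window of HSPE1, whose start lies 2 bases away, holds no match. A match is a description of the letters and not a measured binding site.

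HSPH1 (ENSG00000120694, chromosome 13, 31136628 to 31161909, minus strand) encodes HSP110, the nucleotide exchange factor of cytosolic HSP70. It gave 22.9 and 25.7 CPM in DMSO, 16.2 and 17.1 CPM under GDC0068, and 16.5 and 15.6 CPM under Degrader. As for HSPA8, all 4 drug libraries were below both DMSO libraries, and the drug libraries overlapped each other. The gene fell by 0.60 on the log2 scale under Degrader (SE 0.0943, edgeR adjusted p = 0.00204) and by 0.55 under GDC0068 (SE 0.0943, edgeR adjusted p = 0.0138). The Degrader call held under every alternative run. The GDC0068 call was lost without DMSO replicate 1 (edgeR adjusted p = 0.0556), DMSO replicate 2 (edgeR adjusted p = 0.0964), GDC0068 replicate 1 (edgeR adjusted p = 0.0552) or GDC0068 replicate 2 (edgeR adjusted p = 0.0567), although the change stayed between -0.63 and -0.46.

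DNAJB1 (ENSG00000132002, chromosome 19, 14514769 to 14518394, minus strand) encodes HSP40, the J-domain partner of HSP70 that is also a classic heat-inducible gene. It stood at 77.8 and 74.4 CPM in DMSO, 87.8 and 84.4 CPM under GDC0068, and 77.7 and 82.1 CPM under Degrader. The GDC0068 libraries were above both DMSO libraries, and the Degrader libraries overlapped them. The log2 fold change was 0.18 under GDC0068 (95% interval 0.06 to 0.29, edgeR adjusted p = 0.0960) and 0.07 under Degrader (edgeR adjusted p = 0.427). The replicate block made the GDC0068 change a call (edgeR adjusted p = 0.00502). It was 0.17 and 0.18 between libraries of the same replicate number.

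HSP90AB1 (ENSG00000096384, chromosome 6, 44247101 to 44253883, plus strand) encodes the constitutive HSP90. Its level was 125 CPM in each DMSO library, 117 and 110 CPM under GDC0068, and 101 and 103 CPM under Degrader. The arms did not overlap. DMSO was highest, GDC0068 lay between, and Degrader was lowest. The gene fell by 0.30 on the log2 scale under Degrader (SE 0.0499, edgeR adjusted p = 0.00281), a call that every alternative kept. Under GDC0068 the log2 fold change was -0.14 (95% interval -0.25 to -0.03, edgeR adjusted p = 0.138). This too became a call under the replicate block (edgeR adjusted p = 0.00824).

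HSP90AA1 (ENSG00000080824, chromosome 14, 102080738 to 102087044, minus strand) encodes the inducible HSP90. It gave 46.6 and 62.4 CPM in DMSO, 52.0 and 53.2 CPM under GDC0068, and 50.0 and 53.7 CPM under Degrader. The DMSO libraries differed from each other by more than any drug library differed from another, and they enclosed all 4 of them. Its log2 fold change was -0.07 under Degrader (95% interval -0.30 to 0.16, edgeR adjusted p = 0.715) and -0.05 under GDC0068 (-0.28 to 0.18, edgeR adjusted p = 0.847). The experiments gave opposite signs, 0.10 and -0.22 under Degrader and 0.16 and -0.23 under GDC0068. The SE of these changes was 0.105, beside 0.0499 for HSP90AB1 under Degrader.

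HSPD1 (ENSG00000144381, chromosome 2, 197486584 to 197499840, minus strand) and HSPE1 (ENSG00000115541, chromosome 2, 197500381 to 197503449, plus strand) encode HSP60 and HSP10, the barrel and the lid of the mitochondrial chaperonin. The genes lie head to head with 540 bases between their counted starts. HSPD1 stood at 55.3 and 57.5 CPM in DMSO, 53.7 and 45.5 CPM under GDC0068, and 47.4 and 43.6 CPM under Degrader. All drug libraries were below both DMSO libraries, though GDC0068 replicate 1 only slightly. HSPD1 fell by 0.31 on the log2 scale under Degrader (SE 0.0781, edgeR adjusted p = 0.0215). This call was lost without DMSO replicate 1 (edgeR adjusted p = 0.0736), DMSO replicate 2 (edgeR adjusted p = 0.0958) or Degrader replicate 2 (edgeR adjusted p = 0.149). Under GDC0068 the log2 fold change was -0.19 (edgeR adjusted p = 0.204), and blocking by replicate made it a call (edgeR adjusted p = 0.0215). It was -0.04 and -0.34 between libraries of the same replicate number.

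HSPE1 gave 5.54 and 5.15 CPM in DMSO, 4.64 and 4.86 CPM under GDC0068, and 4.39 and 3.67 CPM under Degrader, from 107 to 178 counts per library. Both drug arms lay below DMSO. The log2 fold change was -0.41 under Degrader (95% interval -0.75 to -0.07, edgeR adjusted p = 0.0967) and -0.17 under GDC0068 (-0.50 to 0.16, edgeR adjusted p = 0.581). The blocked fit called the Degrader change (edgeR adjusted p = 0.0403).

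**Figure D2:**
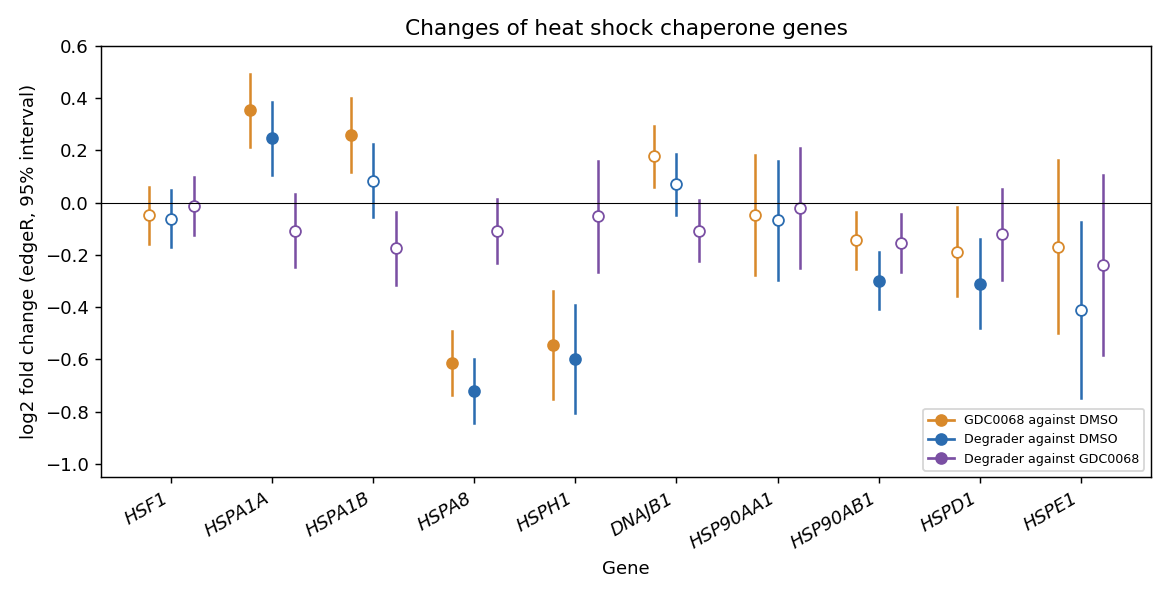
Log2 fold change (y axis) of each gene (x axis) in the comparisons of GDC0068 with DMSO (orange), Degrader with DMSO (blue) and Degrader with GDC0068 (purple), from the edgeR fit to all 6 libraries; bars are 95% intervals and filled points have an adjusted p under 0.05. HSPA8 and HSPH1 lie between -0.72 and -0.55 against DMSO, HSPA1A lies above 0 against DMSO in both, and no purple point is filled.

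Levels can be set against each other only per length of interval. Per kb, HSPA8 had 54.5 ± 3.6 CPM in DMSO and HSPA1B 24.9 ± 1.5 CPM (SD, n = 2 throughout). DNAJB1 followed with 21.0 ± 0.65 CPM per kb, then HSP90AB1 with 18.4 ± 0.086 and HSPA1A with 17.4 ± 0.87. HSP90AA1 had 8.64 ± 1.8 CPM per kb, HSF1 6.29 ± 0.11 and HSPD1 4.26 ± 0.11. HSPE1 had 1.74 ± 0.091 CPM per kb and HSPH1 0.961 ± 0.078. The libraries of no pair of neighbours in this order overlapped, but HSP90AB1 and HSPA1A differed by 1.00 CPM per kb, close to the sum of their SDs of 0.959. Under GDC0068 the levels per kb were 35.7 ± 0.81 CPM for HSPA8 and 29.8 ± 1.7 CPM for HSPA1B, and under Degrader 33.1 ± 0.41 and 26.4 ± 1.1 CPM, so HSPA8 was the highest of the 10 in every arm. Which part of a gene was counted is not given in the sources used here. Polymerase paused near the start weighs more in a short interval such as that of HSPA1A (2.40 kb) than in a long one such as that of HSPH1 (25.3 kb).

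**Figure D3:**
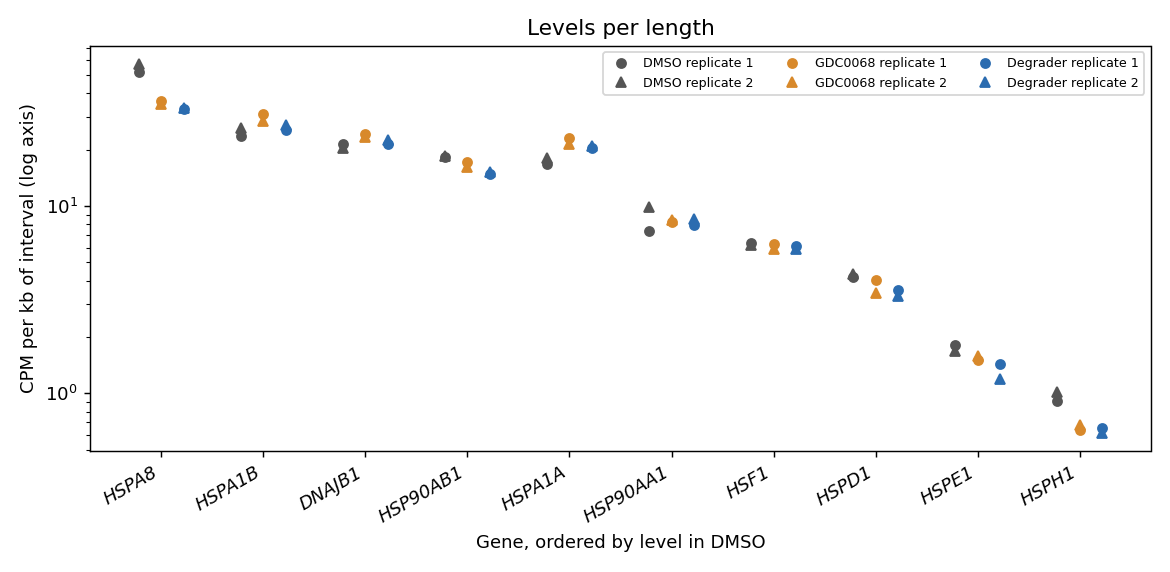
Level of each gene in CPM per kb of its interval (y axis, log scale), with genes on the x axis ordered by their mean in DMSO; circles are replicate 1 and triangles replicate 2 of DMSO (grey), GDC0068 (orange) and Degrader (blue). HSPA8 is highest in every arm, and HSPA1A passes HSP90AB1 in both drug arms.

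The direct comparison asked whether removing AKT differs from blocking its activity at the doses used. edgeR called 0 of the 10 genes between Degrader and GDC0068, where 0.266% of all genes were called (0.116% higher and 0.151% lower), and DESeq2 and limma voom also called 0. An unadjusted p under 0.05 was found for 2 of the 10, HSP90AB1 and HSPA1B, and for 14.1% of all genes, so this count is near the background. All 10 log2 fold changes were below 0, from -0.24 for HSPE1 to -0.01 for HSF1, with a median of -0.11 beside -0.00 over all genes. The Degrader libraries lay below both of GDC0068 for 6 genes and above them for none, where 45% of all genes did not overlap (22.1% above and 22.9% below). HSP90AB1 differed by -0.15 (95% interval -0.26 to -0.05, edgeR adjusted p = 0.205) and HSPA1B by -0.18 (-0.32 to -0.04, edgeR adjusted p = 0.255). Under the replicate block these 2 genes were called (edgeR adjusted p = 0.0103 for HSP90AB1 and 0.0257 for HSPA1B), and the other 8 were not, in a fit that called 10.4% of all genes. The intervals for HSPA8 (-0.23 to 0.01) and HSPH1 (-0.26 to 0.16) hold 0, and they also allow a further fall under Degrader of up to 0.23 and 0.26 on the log2 scale.

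Of the 13896 other genes with at least 10 CPM, those with the profile most like HSPA8 over the 6 libraries were ZNF66 (Pearson's r = 0.998), EIF4ENIF1 (0.997), MCM4 (0.997), PRMT3 (0.997) and CENPX (0.997). These correlations of log2 CPM share libraries and scaling and are a description only. All 5 changed less than HSPA8: their log2 fold changes under Degrader ran from -0.43 for CENPX to -0.19 for EIF4ENIF1. Among the other chaperones, HSPH1 stood at place 41 (r = 0.984), HSP90AB1 at place 817 (0.901) and HSPD1 at place 1436 (0.843). HSPA1B (-0.519), DNAJB1 (-0.650) and HSPA1A (-0.826) had negative values, and HSPE1 was below the minimum level.

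Other genes of protein folding were described through 6 lists drawn up from general knowledge, but with earlier results of these data known. The shares below therefore describe these data and are not an independent check. Of the 91 genes listed, 84 were tested. Under Degrader 21 were called lower (25% of those tested, beside 7.88% of all genes) and 2 higher (2.38%, beside 7.39%). Under GDC0068 8 were called lower (9.52%, beside 1.88%) and 0 higher. Blocked by replicate, these counts were 30 lower and 8 higher under Degrader, and 20 lower and 3 higher under GDC0068. As shares, 35.7% were lower and 9.52% higher under Degrader (15.7% and 15.1% of all genes in that fit), and 23.8% lower and 3.57% higher under GDC0068 (8.91% and 8.87% of all genes). The total called under Degrader was 10 without Degrader replicate 1, 4 without Degrader replicate 2, 6 without DMSO replicate 1 and 12 without DMSO replicate 2. These were 11.9%, 4.76%, 7.14% and 14.3% of the list genes, beside 8.89%, 4.67%, 4.68% and 9.16% of all genes, so without Degrader replicate 2 the total was at the background. All 4 genes called there were lower (4.76%, beside 2.38% of all genes). Under GDC0068 it was 4 without Degrader replicate 1, 3 without Degrader replicate 2, 1 without DMSO replicate 1, GDC0068 replicate 1 or GDC0068 replicate 2, and 0 without DMSO replicate 2; DESeq2 called 4 and the fit to 4 libraries 3. Those fits called 2.74%, 2.72%, 0.185%, 1.48%, 0.521%, 0.666%, 3.95% and 2.66% of all genes in turn, beside 4.76%, 3.57%, 1.19%, 1.19%, 1.19%, 0%, 4.94% and 3.57% of the list genes. Between the drugs edgeR called 0 of the 84 genes (12 at an unadjusted p under 0.05), as did DESeq2 and limma voom, and the replicate block called 9. Both shares of the list, 14.3% at the unadjusted p and 10.7% under the block, were near those of all genes, 14.1% and 10.4%.

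The list of the cytosolic chaperonin TRiC, which folds actin and tubulin, and of prefoldin, which delivers them, held the largest share called. Of 15 genes, 7 fell under Degrader (CCT2, CCT3, CCT4, CCT5, CCT6A, CCT7 and PFDN2) and none rose, with a median of -0.24. The shares called lower were 46.7% under Degrader and 20% under GDC0068, beside 7.88% and 1.88% of all genes. Here and for the lists below, the replicate block and the fits without 1 library called the shares of all genes given in the paragraph before. CCT6A went from 81.3 ± 1.6 CPM in DMSO to 65.1 ± 0.21 CPM under Degrader (log2 change -0.32, edgeR adjusted p = 0.00356). CCT5 went from 68.0 ± 0.40 to 55.2 ± 2.1 CPM (-0.30, edgeR adjusted p = 0.00476), and CCT3 from 123 ± 0.36 to 103 ± 3.8 CPM (-0.26, edgeR adjusted p = 0.00534). Under GDC0068 these 3 genes were the ones called, with -0.24 for CCT6A (edgeR adjusted p = 0.0409), -0.25 for CCT5 (edgeR adjusted p = 0.0366) and -0.21 for CCT3 (edgeR adjusted p = 0.0373). The Degrader count was 4 without Degrader replicate 1 or DMSO replicate 2 and 3 without Degrader replicate 2. The GDC0068 count was 5 with the replicate block, 1 under DESeq2, and 0 when any 1 of the 4 libraries compared was left out.

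Of 17 co-chaperones of HSP90, 4 fell under Degrader and 2 under GDC0068, and none rose. As shares, 23.5% and 11.8% were called lower, beside 7.88% and 1.88% of all genes. STIP1, which hands clients from HSP70 to HSP90, had a mean of 95.5 ± 4.5 CPM in DMSO. It had 73.4 ± 3.9 CPM with GDC0068 and 75.1 ± 1.9 CPM with Degrader. Its log2 fold change was -0.38 under GDC0068 (edgeR adjusted p = 0.00907) and -0.35 under Degrader (edgeR adjusted p = 0.00274). PPP5C, a phosphatase bound to HSP90, changed by -0.21 (edgeR adjusted p = 0.0402) and -0.17 (edgeR adjusted p = 0.0375), and NUDC by -0.23 under Degrader (edgeR adjusted p = 0.0194). The median of the list was -0.15 under Degrader and -0.09 under GDC0068. With the replicate block 9 and 6 were called, all lower. Over all genes DESeq2 called 13.6% under Degrader, 6.41% higher and 7.15% lower. Taken in either direction, the Degrader counts given next were near or below the shares of all genes in those fits. The Degrader count was 2 under DESeq2 and 1 when any 1 of the 4 libraries compared was left out. The GDC0068 count was 0 without DMSO replicate 2 and 1 without any 1 of the other 5 libraries, under DESeq2 or in the fit to 4 libraries.

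The 25 partners of HSP70 moved in both directions. Under Degrader 6 fell (24%, beside 7.88% of all genes) and 1 rose (4%, beside 7.39%). The riser was DNAJB4, a J-domain protein, which went from 9.88 ± 1.2 CPM in DMSO to 14.2 ± 0.27 CPM (log2 change 0.53, edgeR adjusted p = 0.00995). HSPA4, an HSP110 relative of HSPH1, changed by -0.28 (edgeR adjusted p = 0.0114) and DNAJA4 by -0.27 (edgeR adjusted p = 0.0270). DNAJA4 was the 1 gene of the list called under GDC0068 (-0.32, edgeR adjusted p = 0.0361), or 4% of the list beside 3.58% of all genes. With the replicate block 7 fell and 4 rose under Degrader, and 5 fell and 3 rose under GDC0068. Over all genes DESeq2 called 13.6% under Degrader, 6.41% higher and 7.15% lower. Taken in either direction, the Degrader counts given next were near or below the shares of all genes in those fits. The Degrader count was 3 under DESeq2, 2 without Degrader replicate 1, 3 without DMSO replicate 2, and 0 without Degrader replicate 2 or DMSO replicate 1. The GDC0068 call was lost in the fit to 4 libraries and without any 1 library other than Degrader replicate 1.

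Of 13 mitochondrial chaperones and proteases, 3 fell (23.1%, beside 7.88% of all genes) and 1 rose (7.69%, beside 7.39%) under Degrader. Under GDC0068 15.4% were called lower, beside 1.88% of all genes. HSPA9, the HSP70 of the mitochondrial matrix, went from 120 ± 0.19 CPM in DMSO to 103 ± 4.0 CPM under GDC0068 and 102 ± 0.21 CPM under Degrader, with log2 fold changes of -0.22 (edgeR adjusted p = 0.0362) and -0.23 (edgeR adjusted p = 0.00896). TRAP1, the mitochondrial HSP90, changed by -0.31 under Degrader (edgeR adjusted p = 0.00936). DNAJA3, a J-domain protein of mitochondria, changed by -0.24 under Degrader (edgeR adjusted p = 0.00995) and -0.21 under GDC0068 (edgeR adjusted p = 0.0443). CLPX, the unfoldase of the matrix protease, rose by 0.27 under Degrader (edgeR adjusted p = 0.00864). The block called 6 lower and 2 higher under Degrader and 4 lower under GDC0068. The Degrader count was 0 without Degrader replicate 2 or DMSO replicate 1. The GDC0068 count was 0 when any 1 of the 6 libraries was left out and in the fit to 4 libraries, and 1 under DESeq2.

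Of the small heat shock proteins, 4 of 10 were in the table (HSPB1, HSPB6, HSPB8 and HSPB11), and edgeR, DESeq2 and limma voom called 0 of them under either drug, with 0 at an unadjusted p under 0.05. Of 10 other heat shock factors and regulators of HSF1, 1 was called under Degrader (10%, beside 15.3% of all genes), which is not above the background. It was EEF1A1, an elongation factor, which changed by -0.18 (edgeR adjusted p = 0.0339). That call was lost without any 1 of the 4 libraries compared, and the block called 1 lower and 2 higher. Under GDC0068 edgeR, DESeq2 and limma voom called 0 of the 10, with 0 at an unadjusted p under 0.05.

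**Figure D4:**
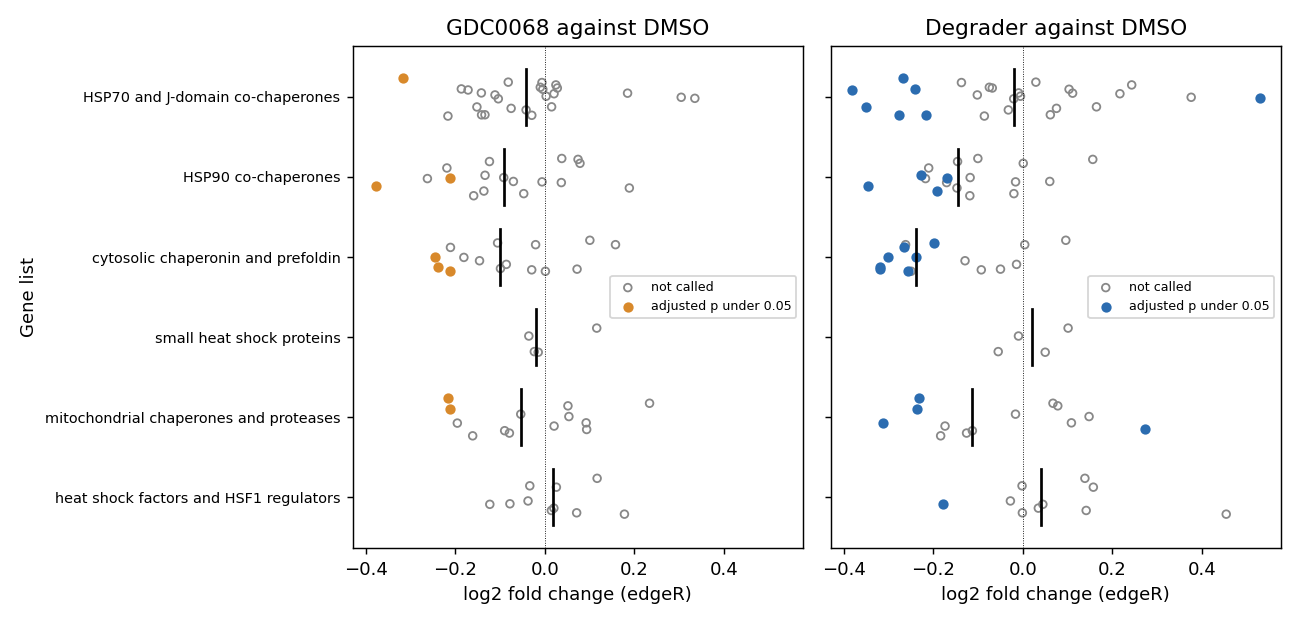
Log2 fold change (x axis) of each tested gene of the 6 lists (y axis; vertical placement within a list has no meaning) under GDC0068 (left) and Degrader (right) against DMSO; filled points have an adjusted p under 0.05 and black bars are list medians. In the right panel 21 filled points lie below 0 and 2 above it, and in the left panel all 8 lie below 0.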

How the data were processed

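The authors deposited raw counts per gene interval, 1 column per library, for 6 PRO-seq libraries. Per the submitters' processing notes, cutadapt 1.14, Bowtie 1.2.2, SAMtools 1.3.1, HISAT2 2.2.1 and limma were used, with the builds hg38, GRCh38 and dm3, whose roles are not given. Treatment of duplicates, use of strand, the counted part of a gene and any spike-in scaling are not given in the sources used here; each can change the counts, and intervals on the same strand can share reads.

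Counts were fitted in R 4.3.3 with edgeR 4.0.16: filterByExpr (minimum count 10), TMM scaling, and 1 quasi-likelihood fit with a term per arm and 3 residual degrees of freedom. The threshold was 0.05 on p-values adjusted by Benjamini-Hochberg over the 19902 genes. The SE is the change divided by the square root of F, and 95% intervals use the moderated t distribution. The script was tested on simulated data. With 2 libraries per arm no permutation test between arms can pass 0.05. The series text calls the 2 experiments independent without saying what was repeated, so p-values measure the spread between these libraries. Alternatives were RLE and total-count scaling, no filter, DESeq2 1.42.0, limma 3.58.1 voom, robust estimation and 4 libraries only. Others were each library left out, summed HSPA1 genes and, added after seeing the data, HSPA8 less the counts of SNORD14D and SNORD14E.

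Replicate numbers come from the labels. Deviations of same-numbered libraries from their arm means correlated over genes in every pair of arms (0.177, 0.220 and 0.204). The main fit has no replicate term, so its p-values do not use this pairing. The replicate block, run as an alternative, does, and is given where it changes a call or a count.

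The genes and lists were chosen with earlier results of these data known. Named were all 10 chaperone genes, up to 3 called genes of each list per comparison, intervals that overlap a chaperone gene, and the 5 genes most like the one with the smallest adjusted p. PFDN2, CCT2, CCT4 and CCT7 were named after their values were seen, and TATAAA was added to the motif search then.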

Additional observations from a re-analysis of the deposited data

How the results depend on the processing

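HSPA8 under both drugs, and HSPH1 and HSP90AB1 under Degrader, kept their direction and their call under every alternative run: 2 other scalings, no filter, DESeq2, limma voom, the replicate block, robust estimation, 4 libraries, each library left out and the summed HSPA1 genes. No call changed direction under any alternative. With the replicate block, 7 of the 10 genes were called under GDC0068 against 4 without it, and 2 between the drugs against 0. The blocked fit called 6 under Degrader against 5, and all genes called without the block remained called. Leaving out 1 library gave 3 to 5 called genes under Degrader, 1 to 3 under GDC0068 and 0 between the drugs. Over all genes tested the block raised the calls from 3039 to 6114 under Degrader, from 712 to 3540 under GDC0068 and from 53 to 2065 between the drugs. Between the drugs DESeq2 called 136 genes, robust estimation 116 and the fit to 4 libraries 23. Counts of 107 to 178 per library limit HSPE1, and the spread between the DMSO libraries limits HSP90AA1.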

Other observations

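The genes that start beside HSF1 and HSPA8 on the opposite strand had other changes. They were singled out after their values were seen. HSPD1 and HSPE1, described above, also start beside each other, and their changes had the same direction. HSPA1L, 918 bases from HSPA1A on the opposite strand, changed by 0.10 under Degrader (edgeR adjusted p = 0.581). BOP1, which encodes a factor of ribosome assembly, starts 205 bases from HSF1. It stood at 95.4 and 84.1 CPM in DMSO, 70.4 and 60.7 CPM under GDC0068, and 62.2 and 51.4 CPM under Degrader, with all drug libraries below both DMSO libraries. BOP1 fell by 0.66 on the log2 scale under Degrader (SE 0.0949, edgeR adjusted p = 0.00125). Its GDC0068 change was -0.46 (SE 0.0943, edgeR adjusted p = 0.0274), where HSF1 changed by -0.06 and -0.05. The GDC0068 call of BOP1 was lost with robust estimation (edgeR adjusted p = 0.0673) and without DMSO replicate 1, DMSO replicate 2 or GDC0068 replicate 2.

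AP000926.2, a long interval that starts 524 bases from HSPA8, gave 80.6 and 77.9 CPM in DMSO, 89.0 and 92.2 CPM under GDC0068, and 92.9 and 93.5 CPM under Degrader. It rose by 0.23 on the log2 scale under Degrader (SE 0.0498, edgeR adjusted p = 0.00974), where HSPA8 fell by 0.72. The GDC0068 value was 0.19 (edgeR adjusted p = 0.0577; 0.00130 with the replicate block and 0.0475 with robust estimation). The Degrader call was lost without Degrader replicate 2 or DMSO replicate 2. Neither difference between neighbours was tested as such.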
